A study of Homo sapiens with 12 samples.

Results

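The mitotic kinases and spindle checkpoint genes AURKA, AURKB, BUB1, BUB1B, TTK, NEK2, MELK, MAD2L1, PBK and CDC25C were followed in RNA sequencing data from A549 and H1792 cells. These 10 genes were found by their Ensembl identifiers in the deposited table, which holds 20595 genes, and all 10 were present. A549 and H1792 are established human lung adenocarcinoma (LUAD) cell lines. The study describes both as carrying MDM2 amplification, and most of its text gives A549 as p53 wild type (WT) and H1792 as p53 mutant. RG7112, an MDM2 inhibitor of the nutlin type, keeps MDM2 from binding p53. Each line was kept for 48 h in DMSO, the solvent control, or in 1 μM RG7112. There were 3 replicates in each of the 4 groups, which gave 12 samples. Each p53 background was represented by a single cell line, so p53 status and every other difference between the lines cannot be told apart. Whether replicates were separate cultures is not stated in the sources used here, and the p-values then measure only the spread between these samples, which may be technical.

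Before a cell divides, its chromosomes must attach to the spindle from both sides. Aurora kinases and NEK2 act on centrosomes, the spindle and kinetochores, while BUB1, BUBR1 (the product of BUB1B), TTK and MAD2 (the product of MAD2L1) form the core of the checkpoint that holds anaphase until every kinetochore is attached. CDC25C is the phosphatase that removes inhibitory phosphates from CDK1 at mitotic entry. Most of these genes are transcribed late in the cell cycle. In textbook accounts the p53 target CDKN1A (p21) restrains CDK activity, the DREAM complex then occupies promoters of late cell cycle genes, and in cycling cells the same MuvB core with MYBL2 and FOXM1 activates them.

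Library totals ran from 2011916 to 6218825 counts, and 3 counts corresponded to 0.482 to 1.491 CPM, a floor that covers counting error only. CPM are counts scaled to a common library size, normalised here by trimmed mean of M values (TMM) over the 12 samples. The treatment check used the p53 targets CDKN1A and MDM2. MDM2 stood at 3.12 to 13.0 CPM in A549 with DMSO and at 58.6 to 76.1 CPM with RG7112 (log2 fold change 2.99, edgeR adjusted p = 0.0102). CDKN1A rose as well (3.58, adjusted p = 0.0252), and replicate 3 of A549 with RG7112 stood apart at 942 CPM against 203 and 190 CPM in the other two. In H1792 neither passed the test, with log2 fold changes of -0.05 for MDM2 and 0.15 for CDKN1A. KRT8 and KRT18 were abundant in both lines, whereas EPCAM did not exceed 6.23 CPM in any sample and CDH1 did not exceed 1.06 CPM in H1792. Leukocyte and endothelial genes together gave 0 to 1.91 CPM per sample, with CD3E and LYZ at 0.

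Promoter windows from RefSeq (GRCh38.p14), each reaching from 250 bases before an annotated start site to 50 bases after it, were at hand for 7 of the 10 genes, in 11 windows. AURKA, TTK and PBK had none. Both strands were searched for the cell cycle genes homology region (CHR, TTTGAA or TTCGAA), which is known as the element bound by the MuvB core, for the CCAAT box (CCAAT), known as the NF-Y element, and for an E2F site (TTTCCCGC, TTTGGCGC, TTTCGCGC or TTTGCCGC). A CHR was found in 5 of the 11 windows, against 16.4% of all 35114 windows searched. A CCAAT box was found in 7 of 11, against 34.6% of all windows, and both together in 4 of 11, against 6.4%. The E2F letters were found in 0 of 11 windows and in 3.3% of all. No CHR match overlapped a CCAAT match. Windows of one gene overlap each other, so they are not independent, and a match is a string of letters and not a bound site.

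The windows of the 4 genes with a CHR are shown because these are the letters that the DREAM and MuvB literature ties to late cell cycle genes. They are written 5′ to 3′ on the strand of the gene, with CHR and CCAAT matches (CCAAT or its reverse complement ATTGG) in capitals.
BUB1 (chr2:110678014-110678313, minus strand): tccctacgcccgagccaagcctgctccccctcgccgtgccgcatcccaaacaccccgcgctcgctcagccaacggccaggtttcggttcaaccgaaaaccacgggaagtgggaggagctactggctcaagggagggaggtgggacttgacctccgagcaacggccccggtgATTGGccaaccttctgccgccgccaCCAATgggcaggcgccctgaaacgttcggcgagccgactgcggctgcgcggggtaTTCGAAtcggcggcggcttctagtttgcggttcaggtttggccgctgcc
BUB1B (chr15:40160819-40161118, plus strand): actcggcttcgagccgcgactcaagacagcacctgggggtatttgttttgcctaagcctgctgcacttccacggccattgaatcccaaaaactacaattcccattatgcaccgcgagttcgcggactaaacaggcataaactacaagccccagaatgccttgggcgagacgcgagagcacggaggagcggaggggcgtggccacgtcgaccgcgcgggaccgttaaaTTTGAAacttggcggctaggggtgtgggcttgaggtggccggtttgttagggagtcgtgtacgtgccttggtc
MAD2L1 (chr4:120066799-120067098, minus strand): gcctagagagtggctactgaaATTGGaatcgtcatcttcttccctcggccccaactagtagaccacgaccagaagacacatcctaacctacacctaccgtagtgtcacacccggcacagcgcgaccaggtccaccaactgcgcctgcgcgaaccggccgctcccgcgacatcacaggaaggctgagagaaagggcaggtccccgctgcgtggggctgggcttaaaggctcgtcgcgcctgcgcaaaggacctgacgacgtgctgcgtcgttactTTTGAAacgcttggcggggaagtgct
CDC25C (chr5:138331755-138332054, minus strand): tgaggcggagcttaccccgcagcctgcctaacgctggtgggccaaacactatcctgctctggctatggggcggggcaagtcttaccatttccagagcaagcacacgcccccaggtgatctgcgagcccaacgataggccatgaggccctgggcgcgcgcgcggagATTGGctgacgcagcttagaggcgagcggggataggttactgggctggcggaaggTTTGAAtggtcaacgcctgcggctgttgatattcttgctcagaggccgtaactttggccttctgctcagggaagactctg
Counted from the start site as base 1, with the base before it as -1, the CHR lay at 2 to 7 in BUB1, at -23 to -18 in BUB1B, at 25 to 30 in MAD2L1 and at -30 to -25 in this CDC25C window. BUB1 also held CCAAT boxes at -79 to -75 and -54 to -50. In MAD2L1 the CCAAT box lay farther out, at -229 to -225. CDC25C had 4 annotated starts, and the window shown had its CCAAT box at -85 to -81. NEK2 and AURKB held CCAAT boxes without a CHR, and the MELK window held none of the letters searched.

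**Figure D1:**
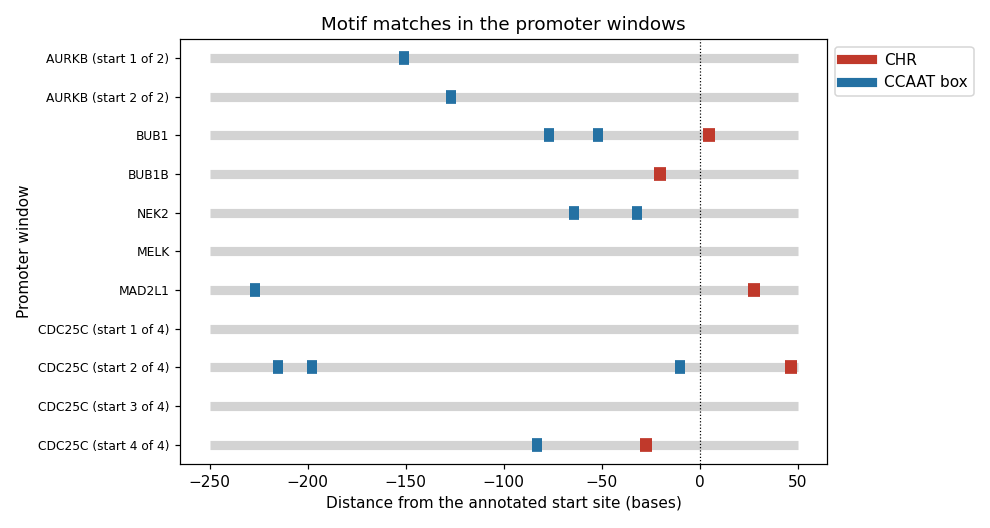
Matches to the CHR (red) and the CCAAT box (blue) in the 11 RefSeq promoter windows of 7 genes, by distance from the annotated start site in bases (dotted line at the start). The 5 windows with a CHR belong to BUB1, BUB1B, MAD2L1 and CDC25C, whose 4 starts gave 4 windows.

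In DMSO, the Aurora kinases were the most abundant of the genes and TTK the least. Per kilobase of the longest coding transcript, mean levels in DMSO fell in the same order in A549 and in H1792, namely AURKB, AURKA, MELK, BUB1, PBK, BUB1B, MAD2L1, CDC25C, NEK2 and TTK. The top of that order was 92.8 CPM per kb for AURKB in A549 and 139 CPM per kb in H1792. AURKA followed at 81.0 and 64.8 CPM per kb, and its samples overlapped those of AURKB in A549 but not in H1792. MELK and BUB1 overlapped in A549, as did BUB1 and PBK. In both lines MAD2L1 overlapped CDC25C and CDC25C overlapped NEK2, with means of 5.05, 4.20 and 3.47 CPM per kb in A549. MAD2L1 did not overlap BUB1B above it, and NEK2 did not overlap TTK below it. TTK was last, at 0.0559 CPM per kb in A549 and 0.0522 CPM per kb in H1792.

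The fit of all 12 samples asked whether A549 and H1792 differed in DMSO. With edgeR, 0 of the 9 genes tested passed an adjusted p of 0.05, 0 had an unadjusted p below 0.05, and DESeq2 and limma-trend called 0 as well. Among all 11666 genes tested, 47.5% differed between the lines in one direction or the other. Log2 differences, A549 over H1792, ran from -0.58 for AURKB to 0.54 for NEK2, where the standard errors (SE) were 0.44 and 0.57. For AURKB and NEK2 the standard errors were too large to resolve differences of that size, and CDC25C was no better (0.25, SE 0.70). AURKA, BUB1, BUB1B, MAD2L1 and PBK had standard errors of 0.22 to 0.25 and differences from -0.03 to 0.32. MELK was the best resolved (0.16, SE 0.12). It passed the test with library size as the only scaling (0.43, adjusted p = 0.0202), under which the median of all genes was 0.35 in place of 0.092.

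In A549, RG7112 lowered nearly the whole group. Of the 9 genes tested, 8 were downregulated with an adjusted p below 0.05 and an absolute log2 fold change over 1, against 3.01% of the 10739 genes tested in A549. None was upregulated, against 3.18% of genes. All 9 had every RG7112 sample below every DMSO sample, a pattern that 16.3% of tested genes showed. The median log2 fold change of the 9 was -4.21, beside -0.015 over all genes. Summed over the 10 genes, expression was 525 to 622 CPM with DMSO and 53.4 to 60.0 CPM with RG7112. In RNA from whole cultures, fewer cells in late cell cycle phases and less RNA per cell cannot be told apart.

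Of the Aurora kinases, AURKA (chr20:56369389-56392337) encodes the centrosomal and spindle kinase. It measured 220, 154 and 173 CPM in DMSO replicates 1 to 3 of A549, and 35.3, 35.3 and 28.5 CPM with RG7112. All RG7112 samples lay far below the DMSO samples and close to each other. Its log2 fold change was -2.46 (SE 0.20, adjusted p = 0.000881), and AURKA kept 18.1% of its DMSO mean, the largest share among the 9. AURKB (chr17:8204733-8210600), the catalytic subunit of the chromosomal passenger complex, measured 99.0, 110 and 140 CPM with DMSO and 3.87, 0.477 and 13.3 CPM with RG7112. Here the treated samples spread widely, with 1 count in replicate 2 and 49 counts in replicate 3. The log2 fold change was -4.24 (SE 0.72, adjusted p = 0.0145).

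The checkpoint genes tested in A549 all fell. BUB1 (chr2:110637698-110678114), the kinase that marks centromeric chromatin and recruits checkpoint proteins, measured 95.3, 78.2 and 49.1 CPM with DMSO and 4.03, 3.34 and 2.17 CPM with RG7112. Treated samples kept 4.29% of the DMSO mean, and the log2 fold change was -4.51 (SE 0.37, adjusted p = 0.00098). BUB1B (chr15:40161023-40221136), whose product BUBR1 is part of the mitotic checkpoint complex, measured 53.7, 36.5 and 44.1 CPM with DMSO and 2.01, 3.34 and 2.17 CPM with RG7112. It behaved much as BUB1 did, with a log2 fold change of -4.21 (SE 0.31, adjusted p = 0.0007). MAD2L1 (chr4:120055608-120067074), which encodes the checkpoint protein that binds and holds CDC20, went from 24.1, 29.9 and 28.9 CPM to 2.94, 3.34 and 2.17 CPM. The treated values sat within a narrow range (9.82-fold lower, log2 fold change -3.30, SE 0.28, adjusted p = 0.00121).

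TTK (chr6:80003887-80042527), also known as MPS1, starts the checkpoint at unattached kinetochores. It was nearly absent from these counts, with 2, 0 and 0 counts in DMSO and 0, 0 and 1 counts in RG7112 samples of A549. Both groups were at or under the floor of 3 counts per library, so no fold is given and TTK entered no test. In H1792 it had 1, 1 and 0 counts with DMSO and 0, 6 and 8 counts with RG7112. The ratio of the depth-scaled sums was 6.11 with an exact 95% interval of 1.40 to 55.4 that covers counting error only, and replicate 1 of the treated samples had none.

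Among the other kinases, MELK (chr9:36572862-36677683), a member of the AMPK-related family, gave the tightest values. It went from 71.5, 64.3 and 67.3 CPM with DMSO to 6.04, 6.67 and 6.52 CPM with RG7112 in A549. The samples within each group differed by little, and the log2 fold change of -3.40 had a standard error of 0.20 (adjusted p = 0.000326). PBK (chr8:27809620-27838095), also called TOPK, a kinase active in mitosis, went from 37.2, 35.8 and 32.4 CPM to 1.70, 0.953 and 0.543 CPM. This was the lowest share of the DMSO mean, 3.04%, and with all libraries the most negative log2 fold change of the group (-4.89, SE 0.39, adjusted p = 0.000888). The treated PBK samples had 11, 2 and 2 counts, with replicates 2 and 3 under the floor of 3 counts. Its place as the lowest therefore rests on few counts. NEK2 (chr1:211658657-211675630), which separates centrosomes before spindle assembly, had 30, 40 and 24 counts with DMSO and 0, 0 and 4 counts with RG7112. With so few counts the log2 fold change of -4.29 had a standard error of 0.99, and its adjusted p of 0.0426 rose to 0.0541 after GC correction, to 0.0823 with the replicate number as a block and to between 0.0866 and 0.135 without any one of 5 of the 6 libraries. Without replicate 3 with RG7112 NEK2 stayed called (adjusted p = 0.0147). The treated libraries left then had 0 counts, so no fold is given for that fit.

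CDC25C (chr5:138285265-138338355), the phosphatase, was the gene that did not pass in A549. It had 37, 56 and 23 counts with DMSO and 1, 0 and 12 counts with RG7112. The groups did not overlap in CPM, but replicate 3 with RG7112 lay at 3.26 CPM where the other two lay at 0.155 and 0 CPM. The log2 fold change was -2.92 (SE 1.03, adjusted p = 0.137). Without that library it was -5.97 (adjusted p = 0.0141), a size that rests on 1 and 0 treated counts. All 9 genes were then downregulated. The same library had the highest AURKB and NEK2 values among the treated samples and the highest CDKN1A. It had the lowest treated values of AURKA (28.5 CPM), BUB1 (2.17 CPM), MAD2L1 (2.17 CPM) and PBK (0.543 CPM). The part of that library in these results was not tested further. AURKB in turn lost its call without DMSO replicate 1 or 2 or RG7112 replicate 1 (adjusted p = 0.0522, 0.0586 and 0.0694). Over all genes, 323 were downregulated with every library and between 159 and 256 without 1 library.

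**Figure D2:**
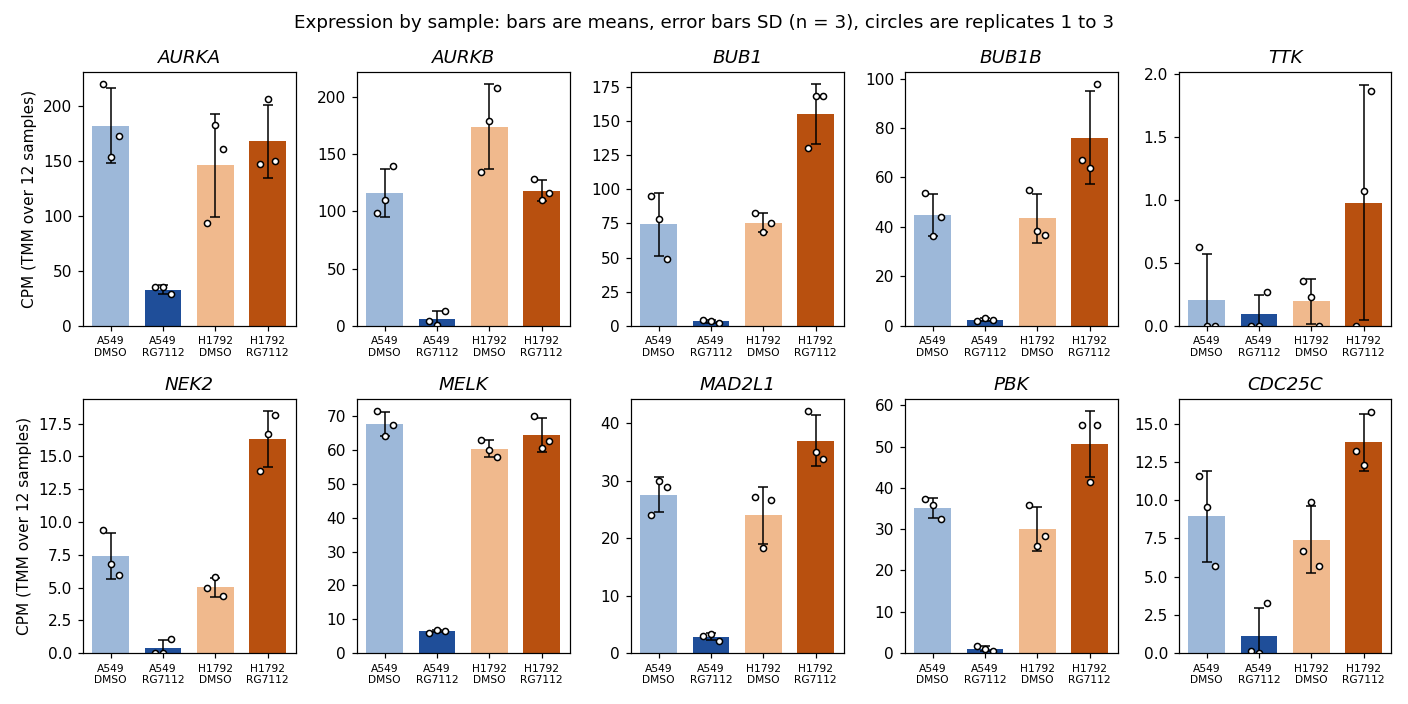
CPM of each of the 10 genes in the 4 groups (y axis, own scale from 0 for each gene), with bars for means, error bars for SD (n = 3) and circles for replicates 1 to 3. The dark blue bars of A549 with RG7112 sit below those with DMSO for the 9 genes tested, while TTK stays below 2 CPM in every sample.

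In H1792, the response to RG7112 was smaller and went mostly the other way. Of the 9 genes tested, 6 were higher with an adjusted p below 0.05, against 17.7% of the 9914 genes tested, and none was lower, against 16.5%. With an absolute log2 fold change over 1 as well, 2 remained (BUB1 and NEK2), against 10.3% of genes. In 6 genes every RG7112 sample lay above every DMSO sample, which 24.9% of tested genes showed. The median log2 fold change was 0.83, beside 0.01 over all genes, and the summed CPM went from between 504 and 604 to between 666 and 719. With library size as the only scaling, the median of all genes moved to 0.269, calls over all genes went from 1752 higher and 1632 lower to 2637 higher and 849 lower, and MELK also passed the test (0.42, adjusted p = 0.0244).

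BUB1 rose from 82.8, 68.8 and 75.0 CPM to 130, 168 and 168 CPM in H1792. The treated samples all lay above the controls, at 206% of their mean (log2 fold change 1.12, SE 0.14, adjusted p = 0.00404). NEK2 rose from 4.93, 5.77 and 4.36 CPM to 13.9, 16.7 and 18.2 CPM. This was the largest change of the group in H1792, 3.38-fold, with a log2 fold change of 1.76 (SE 0.24, adjusted p = 0.00439). BUB1B rose from 55.0, 38.5 and 36.6 CPM to 66.9, 63.7 and 97.8 CPM, and the treated samples again lay above the controls (0.88, SE 0.24, adjusted p = 0.0323).

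MAD2L1, PBK and CDC25C also passed, by smaller margins. MAD2L1 went from 27.1, 18.2 and 26.6 CPM to 42.1, 35.0 and 33.8 CPM (0.70, SE 0.22, adjusted p = 0.0457). PBK went from 35.9, 25.8 and 28.3 CPM to 55.3, 41.4 and 55.2 CPM (0.83, SE 0.20, adjusted p = 0.0216). CDC25C went from 6.69, 9.92 and 5.67 CPM to 13.2, 12.3 and 15.8 CPM (0.95, SE 0.28, adjusted p = 0.0391). In all 3 genes the groups did not overlap. Their calls, however, needed nearly every library. MAD2L1 lost its call without any one of the 6 libraries (adjusted p = 0.0576 to 0.106), and CDC25C without any but DMSO replicate 2 (0.0665 to 0.124). PBK lost it without DMSO replicate 2 or 3 or RG7112 replicate 1 or 3 (adjusted p = 0.0504 to 0.0718), and BUB1B without DMSO replicate 2 or 3 or RG7112 replicate 2 or 3 (0.0521 to 0.105). Calls over all genes fell too, from 1752 higher to between 916 and 1692 without 1 library.

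The Aurora kinases and MELK did not pass in H1792. AURKA measured 93.4, 183 and 161 CPM with DMSO and 147, 206 and 150 CPM with RG7112, so the groups overlapped (0.28, SE 0.25, adjusted p = 0.418). MELK measured 63.1, 60.0 and 58.0 CPM and then 70.0, 60.5 and 62.6 CPM (0.17, SE 0.11, adjusted p = 0.285). AURKB was the exception in sign. It measured 134, 179 and 208 CPM with DMSO and 128, 110 and 116 CPM with RG7112, every treated sample below every control, and came close to the threshold (-0.48, SE 0.16, adjusted p = 0.0598). It passed with DESeq2 (-0.49, adjusted p = 0.0331) and without DMSO replicate 1 (-0.64, adjusted p = 0.0184). It did not pass under the other alternatives, with adjusted p up to 0.38, and was at -0.22 with library size only and -0.29 with GC correction.

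**Figure D3:**
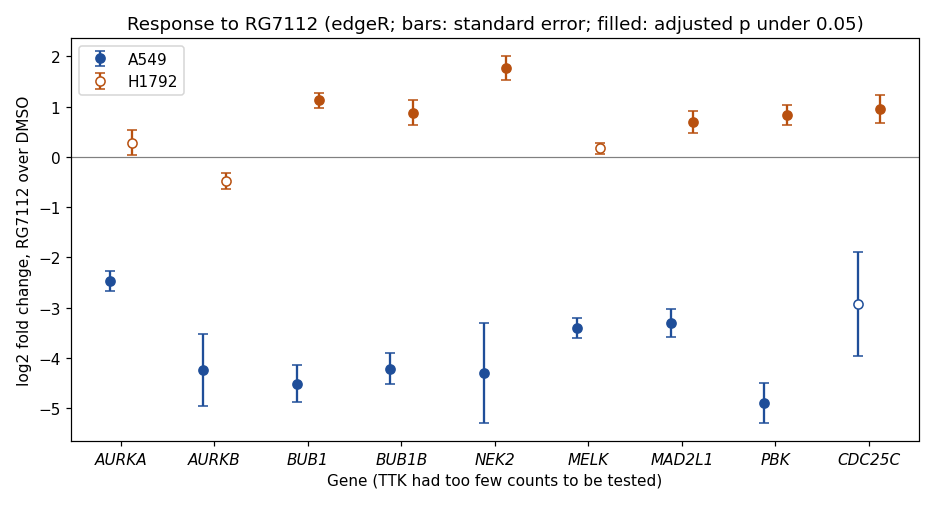
Log2 fold change, RG7112 over DMSO, of the 9 genes tested in A549 (blue) and H1792 (orange), with edgeR standard errors as bars and filled symbols for an adjusted p below 0.05. All A549 values lie between -4.89 and -2.46, and the H1792 values lie between -0.48 and 1.76.

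GC content moved with the H1792 response. Over 9165 genes with a known GC content, the log2 fold change in H1792 had a Spearman correlation of -0.46 with GC content, across genes, which are not independent replicates. Its median fell from 0.68 among genes of 34 to 38% GC to -0.459 among genes of 62 to 66% GC. Of the 10 genes, 9 lay between 39.39% (MAD2L1) and 46.71% (CDC25C), below the median of 50.3%, and AURKB lay above it at 56.06%. In A549 the correlation had the other sign (0.252, 9941 genes), with a median of -0.316 among genes of 34 to 38% GC.

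After correction for GC content, 2 of the 9 genes were called in H1792, BUB1 (0.67, adjusted p = 0.00851) and NEK2 (1.33, adjusted p = 0.0099), against 13.1% of genes called higher with the same correction, and none was called lower, against 13.3%. The median log2 fold change of the 9 went from 0.83 to 0.32. MAD2L1 went to 0.13 (adjusted p = 0.703), PBK to 0.32 (0.27), BUB1B to 0.45 (0.16) and CDC25C to 0.66 (0.133), these being adjusted p-values from edgeR. AURKA and MELK changed sign, to -0.08 and -0.33, neither past the threshold. In A549 the same correction left 7 of 9 downregulated, against 3.32% of genes, with a median of -4.04. What part of the H1792 values follows from GC content of the libraries was not tested beyond this correction.

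**Figure D4:**
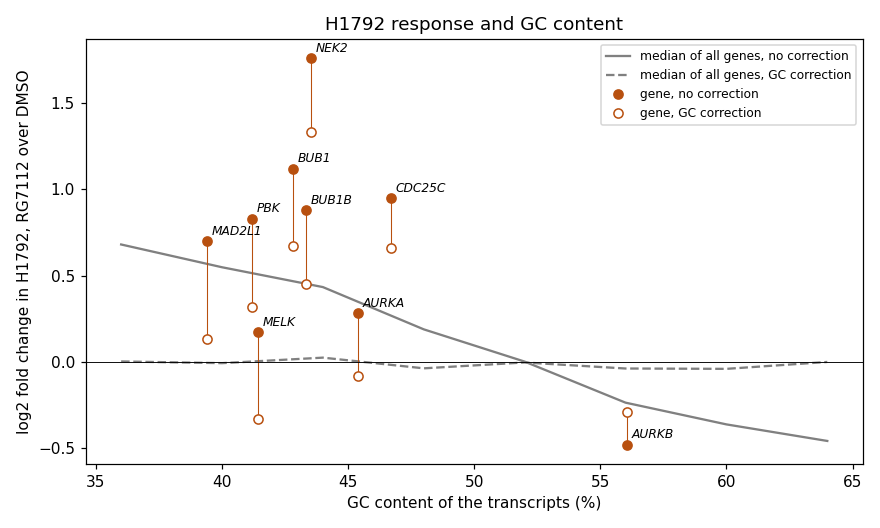
Log2 fold change in H1792 (y axis) against GC content of the transcripts in percent (x axis), for 9 genes without (filled) and with (open) the GC correction. The lines are medians of all genes in bins of GC content, and the uncorrected median falls from 0.68 to -0.459 while the corrected one stays near 0.

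The interaction term tested whether the responses differed between the lines. For all 9 genes the log2 fold change in A549 was lower than in H1792 with an adjusted p below 0.05, against 11.4% of 11666 genes. The difference was smallest for AURKA (-2.67, SE 0.35, adjusted p = 0.000786) and largest for NEK2 (-5.97, SE 0.96, adjusted p = 0.00248). PBK and BUB1 differed by -5.63 and -5.54 with standard errors of 0.41 and 0.38. MELK, called in A549 but not in H1792, differed by -3.49 and had the smallest standard error of the 9, 0.19. CDC25C had the weakest call (-3.79, SE 1.08, adjusted p = 0.03), which GC correction took to 0.0657. The responses being compared have no samples in common.

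Related pairs were compared within samples. The log2 ratio of AURKA to AURKB, computed on CPM with 1 CPM added, was 0.64 ± 0.44 (SD, n = 3) in A549 with DMSO and 2.85 ± 1.79 with RG7112. The difference of 2.21 had a two-sided exact permutation p = 0.2, and RG7112 replicate 3, at 1.04, fell within the DMSO samples. Without RG7112 replicate 2 the difference was 1.33 and without RG7112 replicate 3 it was 3.12. In H1792 the same ratio went from -0.29 ± 0.29 to 0.49 ± 0.36, without overlap, a difference of 0.78 with an exact permutation p = 0.1, the smallest that 3 against 3 samples allow. The log2 ratio of BUB1 to BUB1B differed by -0.43 in A549 (exact permutation p = 0.2) and by 0.23 in H1792 (exact permutation p = 0.5). These 4 comparisons could not reach 0.05 before any adjustment.

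Genes that work with the kinases and the checkpoint were examined in 5 lists. Of the checkpoint and kinetochore partners, 6 of 14 tested genes were downregulated in A549, against 3.01% of all genes, and none was upregulated, against 3.18%, with a median of -1.87. The list includes ZWINT (-3.43, adjusted p = 0.000283), a kinetochore scaffold, and SPC24 (-4.23, adjusted p = 0.00147), a subunit of the NDC80 complex that binds microtubules. In H1792, 2 of 13 rose and 3 fell, shares close to the 17.7% and 16.5% of all genes, and after GC correction none was called higher and 3 lower. Among the latter were SPC24 (-0.85, adjusted p = 0.0047) and MAD1L1 (-0.80, adjusted p = 0.0033), the partner of MAD2, at -0.59 and -0.40 after GC correction and still called. Unlike MAD2L1, MAD1L1 was lower with RG7112 in H1792, at 213 to 269 CPM against 428 to 473 CPM.

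Of the Aurora kinase partners, 6 of 10 were downregulated in A549, against 3.01% of all genes, with a median of -2.78. BIRC5 (survivin), the subunit that brings AURKB to centromeres, fell from between 139 and 191 CPM to between 3.34 and 6.79 CPM (-4.95, adjusted p = 0.000326). HASPIN, the histone kinase that marks its docking site, fell by 3.19 on the log2 scale (adjusted p = 0.0007). In H1792, 4 of 11 partners rose, against 17.7% of all genes, and 1 fell, against 16.5%. After GC correction 2 were called higher and 1 lower. The one that fell was BIRC5 (-0.57, adjusted p = 0.0125), and AURKB had lower values there without being called. INCENP (0.13, adjusted p = 0.643) and CDCA8 (-0.13, adjusted p = 0.866), of the same complex, were not called in H1792. CEP192, which recruits AURKA to centrosomes, rose (0.93, adjusted p = 0.0132), a call lost with GC correction (0.46, adjusted p = 0.112).

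The mitotic entry switch, to which CDC25C belongs, had 5 of 11 genes downregulated in A549, against 3.01% of all genes, with a median of -2.79, and CCNA2 was not analysed here. CCNB1, the cyclin of CDK1, fell from between 248 and 276 CPM to between 22.8 and 33.4 CPM (-3.27, adjusted p = 0.000326). PKMYT1, a kinase that opposes CDC25C on CDK1, also fell (-2.79, adjusted p = 0.0013). In H1792, 3 of 10 rose, against 17.7% of all genes, and 1 fell, against 16.5%, and after GC correction none was called higher and 1 lower. CDK1 was called higher (0.84, adjusted p = 0.0385) without the correction but not with it (0.12, adjusted p = 0.777). PLK1, the kinase that activates CDC25C, fell from between 16.2 and 33.5 CPM to between 7.68 and 11.6 CPM (-1.31, adjusted p = 0.0188). The direction of PLK1 was thus opposite to that of CDC25C in H1792.

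Of the other NEK kinases, 0 of 8 tested were called in A549 by edgeR at an adjusted p below 0.05. Over all 10739 genes, 467 were called higher and 433 lower at that threshold, so 8 genes may well show no call. With edgeR 1 had an unadjusted p below 0.05 (NEK4, -0.90), and DESeq2 and limma-trend called 0 as well. Their log2 fold changes ran from -1.47 to 0.73 with a median of -0.06. In H1792, 3 of 8 rose, against 17.7% of all genes, and 1 fell, against 16.5%, and after GC correction 3 were called higher and none lower. NEK7 (2.77, adjusted p = 0.00428) and NEK4 (1.07, adjusted p = 0.00404) were the clearest. Whether NEK2 differed from other NEK genes in its response was not tested.

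Regulators of the DREAM, MuvB and FOXM1 group include the factors that act at the CHR. In A549, 2 of 11 were downregulated, against 3.01% of all genes, namely FOXM1 (-3.76, adjusted p = 0.000463) and MYBL2 (-4.70, adjusted p = 0.0146), the activating partners of the MuvB core, and the median was -0.51. In H1792, 3 of 11 rose, against 17.7% of all genes, and 1 fell, against 16.5%, and after GC correction 4 were called higher and 2 lower. RBBP4, a histone-binding subunit of MuvB, rose (1.03, adjusted p = 0.00567, and 0.63 after GC correction). LIN54, the MuvB subunit that contacts the CHR, passed the test there as well (adjusted p = 0.00325), with 1, 0 and 0 counts in DMSO and 33, 71 and 36 counts in RG7112, and no fold is given against so few counts. The 1 gene that fell in H1792 was LIN37, another MuvB subunit (-1.27, adjusted p = 0.0272). With GC correction it was at -0.97 and no longer called (adjusted p = 0.0696). The MuvB subunits named thus went both ways.

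Compared across the lines, 10 of 15 checkpoint and kinetochore partners had a lower response in A549 by the interaction, as had 8 of 11 Aurora partners, 7 of 12 entry switch genes, 6 of 11 DREAM, MuvB and FOXM1 regulators and 2 of 9 NEK genes, against 11.4% of all genes. After GC correction these counts were 7, 6, 5, 5 and 2, against 8.43% of all genes. The kinases and checkpoint genes themselves had 9 of 9 without the correction and 8 of 9 with it. The lists were drawn up with results of these data known, so their counts are a description.

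**Figure D5:**
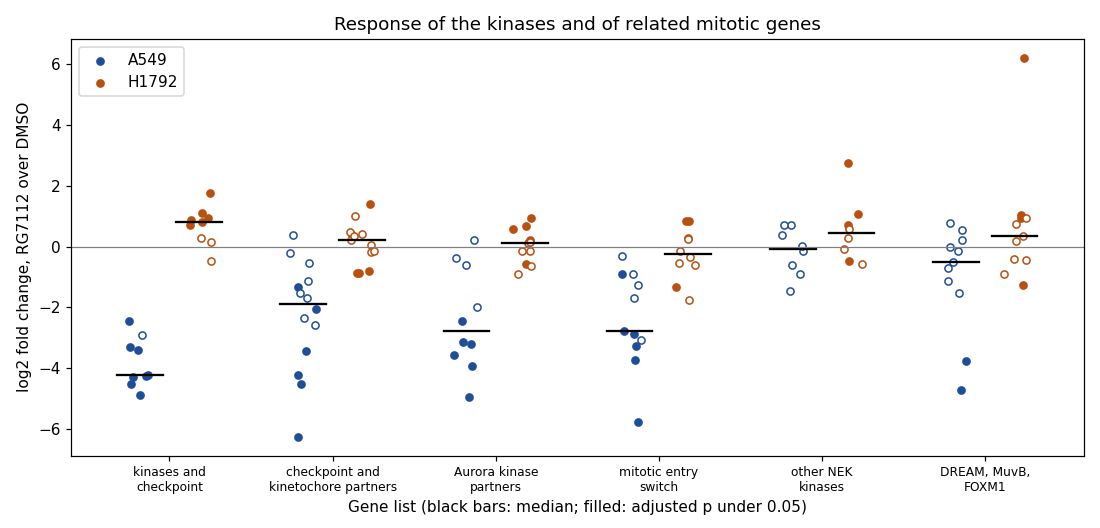
Log2 fold change, RG7112 over DMSO, of the kinase and checkpoint genes and of 5 lists of related genes in A549 (blue) and H1792 (orange). Each circle is a gene, filled where the adjusted p was below 0.05, and black bars are medians, which for the kinase and checkpoint genes lie at -4.21 in A549 and 0.83 in H1792.

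The genes most like the group across the 12 samples were found by Pearson's r with the mean of the standardised log2 CPM of the kinase and checkpoint genes, among 11657 other genes. They were FAM72C (r = 0.989), CENPU (0.987), RRM2 (0.981), NUSAP1 (0.979) and RBMX (0.978), over samples that share cell line and treatment, and the values are a description. RRM2, a subunit of ribonucleotide reductase, went from 182 ± 39.6 to 3.80 ± 0.429 CPM in A549 (SD, n = 3), while in H1792 it went from 102 ± 18.6 to 211 ± 5.03 CPM. NUSAP1, a spindle-associated protein, went from 45.7 ± 14.2 to 4.47 ± 0.39 CPM and from 41.6 ± 10.6 to 62.7 ± 18.1 CPM. FAM72C has near-identical paralogs, so its counts are uncertain.

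Some positions of the 10 genes are shared with other genes. BUB1B overlaps the readthrough gene BUB1B-PAK6 and NEK2 overlaps the pseudogene FDPSP8 on the same strand, and reads may have been divided between them by the authors' quantification. MAD2L1, PBK and CDC25C overlap genes on the opposite strand (AC108866.1, ESCO2 and FAM53C). Second-strand synthesis was directional according to the labels, but the strand setting of the quantification is not given in the sources used here. No gene in the table had the same counts as any of the 10 in all samples. Gene positions are those of GRCh38 in GENCODE v29.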

How the data were processed

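RNA-seq was measured in 12 samples, 3 replicates for each of 2 cell lines and 2 treatments. The authors pseudoaligned reads with kallisto 0.45.0 to the Ensembl transcriptome of GRCh38, added transcripts up to genes with biomaRt annotation, and deposited estimated counts per gene as whole numbers, without normalization between samples. The deposited column names give 0.1 μM where the labels and methods give 1 μM, which was used. Read length and instrument also differ between labels and methods, and the study gives A549 as p53 mutant in the sentence on its sequencing design, which swaps both lines, and in one legend. The labels name one medium for both lines, and the methods name another for A549.

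Lowly expressed genes were dropped by filterByExpr (10 counts per sample, 15 in total), and the rest were scaled by TMM and fitted per cell line with the quasi-likelihood model of edgeR 4.0.16 (R 4.3.3, robust). A gene was called at a Benjamini-Hochberg adjusted p below 0.05 over all genes tested, in A549 also with an absolute log2 fold change over 1, the study's threshold. The interaction and the comparison in DMSO came from one fit of all 12 samples. Standard errors were derived from the F statistic. Common coefficients of variation between replicates (BCV) were 0.345 for A549, 0.270 for H1792 and 0.330 over all samples. Ratios were compared by two-sided exact permutation tests. GC content (17982 of 20595 genes) was taken from GENCODE v29 transcripts and corrected by loess per sample (span 0.5), fitted on the genes with a GC value. The edgeR fits, without and with GC correction or the replicate block, were tested on simulated data. These held no GC trend and no replicate effect, so they cannot show whether the correction or the block removes one. The 10 genes and the lists were chosen with earlier results of these data known. Named were the 10 genes, CDKN1A and MDM2, the 2 called genes with the smallest p in each list and cell line, and the 5 most correlated genes. INCENP, CDCA8 and LIN37 were named in addition, with their values known. Some genes of the marker and treatment checks are not reported here. Alternatives were DESeq2 1.42.0, RLE size factors, library size only, no or a strict filter, limma-trend (limma 3.58.1), the replicate block, GC correction, one fit, other thresholds and leaving out libraries. No pair of replicates was a duplicate (differences 5.12 to 23.3 times counting noise).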

Additional observations from a re-analysis of the deposited data

Results flagged for a closer look

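The responses of the 2 cell lines to RG7112 differed by a test of the difference itself, the interaction term of the edgeR fit over all 12 samples, for each of the 9 genes tested. The A549 response less the H1792 response, on the log2 scale, was -2.67 for AURKA and -3.67 for AURKB. For the checkpoint genes it was -5.54 for BUB1, -5.03 for BUB1B and -3.93 for MAD2L1. It was -5.97 for NEK2, -3.49 for MELK, -5.63 for PBK and -3.79 for CDC25C. Adjusted p-values ran from 2.02e-06 for MELK to 0.03 for CDC25C. Among all 11666 genes tested, 11.4% had a lower response in A549 by the same test. The call of CDC25C was lost in 9 of 21 alternatives, GC correction (adjusted p = 0.0657) among them, with adjusted p up to 0.108. The A549 values were negative for all 9. In H1792, 6 were called higher, against 17.7% of all genes, and 2 (BUB1 and NEK2) after GC correction, against 13.1%. AURKB (-0.48), AURKA (0.28) and MELK (0.17) were not called, and AURKA and MELK were negative after GC correction (-0.08 and -0.33). With 1 line of each p53 status, line and status cannot be told apart.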

How the results depend on the processing

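In A549 the count of 8 downregulated genes ranged from 6 to 9 when 1 library was left out, and was 2 when at least 10 counts were required in every sample, a filter that only AURKA and MELK pass. In H1792 the count of 6 called genes went to 3 with the replicate block, 2 with GC correction, 1 with both (BUB1), 3 with all 12 samples in one fit, 2 at an adjusted p below 0.01 and 2 with a fold threshold, and ranged from 2 to 5 without 1 library. The interaction count of 9 was 2 under the strict filter, and 8 or 9 under the others. In DMSO the count of 0 became 1 with library size only and with the strict filter (MELK both times) and without replicate 3 of A549 (AURKB). Signs turned in H1792 for AURKA (-0.08 with GC correction, -0.03 with block and GC) and MELK (-0.33 and -0.34). In DMSO, where no gene passed, the A549 over H1792 difference of BUB1 (-0.03) turned to 0.25 with library size only, 0.04 without a filter and 0.02 with DMSO samples only, and ranged from -0.22 to 0.20 without 1 library or pair, for example 0.19 without DMSO replicate 3 of A549. That of BUB1B (0.04) turned to -0.15 with GC correction and -0.16 with block and GC, and ranged from -0.09 to 0.24. With GC correction and with block and GC, MELK was at -0.06 and -0.07 and MAD2L1 at -0.04 and -0.03, and PBK was at -0.00 with GC correction. The strict filter removes genes by its construction, and for the other changes the cause was not tested.

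Replicate numbers were not taken to pair the samples, and the replicate block was run as an alternative. Deviations of same-numbered samples correlated at 0.163, 0.0749 and 0.317 in A549 and at -0.0507, -0.0273 and -0.00151 in H1792. The A549 values were all positive, so they cannot decide against a pairing in that line. In A549, replicate 3 of each treatment correlated at -0.257 to -0.152 with the other numbers, and replicate 3 was farther from the others (15.5 to 23.3 times counting noise) than they were from each other (5.12 and 5.63). Without replicate 3 of both treatments, 9 genes were downregulated. With the replicate block, 7 genes were downregulated in A549, 3 called in H1792, 8 in the interaction and 0 in DMSO. Over all genes, H1792 had 1752 higher and 1632 lower calls, 2637 and 849 with library size only, 947 and 893 with the block and 513 and 531 with block and GC. The interaction had 1210 higher and 1329 lower calls, and 645 and 2157 with library size only, where its median was -0.372. The 4 pair ratios kept their sign under every alternative run. NEK2, CDC25C and TTK had the fewest counts of the 10 genes.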

Other observations

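TTK was not alone in being near 0 in these libraries. Among the checkpoint and kinetochore partners, SPC25 had 0 counts in 11 samples and 1 count in replicate 2 of H1792 with RG7112, and CENPE, the kinetochore motor, had 0 to 6 counts per sample. They were picked out after their values were seen. SPC24, which shares a complex with SPC25, had 110 to 228 counts in A549 with DMSO and 218 to 437 counts in H1792 with DMSO. The highest counts of TTK and CENPE, 8 and 6, were both in H1792 with RG7112. Summed over KRT7, KRT8, KRT18, KRT19, EPCAM and CDH1, epithelial marker expression went from between 1820 and 2180 CPM to between 1070 and 1340 CPM with RG7112 in H1792, where 4 of 5 tested markers were called lower, against 16.5% of all genes, and 2 of 5 after GC correction, against 13.3%. The 4 markers called lower were the keratins. EPCAM was higher with RG7112 in H1792 without being called (log2 fold change 1.22, edgeR adjusted p = 0.102), and CDH1 was not tested there. The kinase and checkpoint genes had 6 of 9 called higher in H1792, against 17.7% of all genes, and 2 of 9 after GC correction, against 13.1%. The part of the marker change in those results was not tested.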
